A study of Mus musculus with 8 samples.

Results

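The 7 Krüppel-like factor genes described here are Klf2, Klf3, Klf4, Klf5, Klf6, Klf9 and Klf10. They are a named subset of the family, each read by 1 probe set annotated with that single symbol, out of 22180 genes named on the array. RNA was read on Affymetrix Mouse Gene 2.1 arrays in wild type C57BL/6J mouse cells of 4 kinds, each on 2 arrays. FGF-ESC are lines grown with FGF2 and 20% serum replacement (KSR) on mouse embryonic fibroblast (MEF) feeders. EpiSC, lines of the primed state, had the same labelled medium and also feeders. ESC were grown without feeders with LIF, the 2i kinase inhibitors and, per the sample labels, 15% FCS. ICM is uncultured inner cell mass, freed by immunosurgery from day 3.5 blastocysts, and day 3.5 embryos are also the labelled origin of the FGF-ESC, ESC and EpiSC lines. Between ESC and the other cultures the medium, the feeders and the cells differ at once and cannot be told apart, nor can the ICM group be told apart from the separate RNA column kit it was extracted with. The labels do not say whether the 2 arrays of a group come from separate lines, cultures or embryo pools, so the p-values reflect the spread between these arrays alone, and that spread may be technical.

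Krüppel-like factors are transcription factors that bind GC-rich and CACCC sequences through C2H2 zinc fingers at their C-terminal end. In mouse embryonic stem cells Klf2, Klf4 and Klf5 overlap in holding up naive pluripotency: Klf4 and Klf5 respond to LIF and STAT3, and the KLF2 protein is marked for destruction after phosphorylation by ERK. Klf3 is chiefly a repressor that recruits the corepressor CtBP, Klf6 and Klf10 are induced early by growth factors, with Klf10 first described as a gene induced by TGF-beta, and Klf9 is induced by glucocorticoid and thyroid hormones.

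Markers of the labelled cell states were checked first. The FGF-ESC arrays had a mean over 6 naive marker genes of 7.16 and 7.52, beside 8.10 and 8.05 on those of ESC, 4.48 and 4.94 for EpiSC, and 7.76 and 7.73 for ICM, as log2 intensities. The mean of 7 primed marker genes was 7.10 and 7.52 in EpiSC and between 4.70 and 5.31 on the other 6 arrays. The mean of 11 primitive endoderm markers read 5.93 and 5.98 for ICM, 5.50 and 5.15 for FGF-ESC, and between 4.59 and 4.97 on the other 4 arrays. Its members differed: Gata6 had a mean of 8.02 in ICM against at most 4.51 on any other array, while Gata4 at 4.88 and 5.24 and Sox17 at 5.13 and 5.31 in ICM overlapped with EpiSC. Of the 10 tested, 1 passed the threshold given below as lower in FGF-ESC than in ICM (Gata6) and 0 as higher. Of all tested genes 5.22% were lower and 9.57% higher. FGF-ESC against ESC gave 4 higher and 1 lower, beside 5.27% and 0.934% of all genes. The 4 include Pdgfra (3.30), which is also on the fibroblast list below. Gata6, Gata4 and Sox17 had means of 3.62, 4.76 and 4.63 in FGF-ESC and of 3.70, 4.87 and 4.76 in ESC. The trophectoderm gene Cdx2 was at 5.76 and 5.02 in ICM, against at most 4.33 elsewhere. Of the 10 trophectoderm markers tested, 6 were lower in FGF-ESC than in ICM and 0 higher, beside 5.22% and 9.57% of all genes. Not all of these markers were highest in ICM. Tead4 had a mean of 7.87 in ESC and 7.42 in ICM, and Eomes of 5.89 in EpiSC and 5.66 in ICM. Krt7 had a mean of 4.69 in FGF-ESC and 4.54 in ICM. Fibroblast genes set FGF-ESC apart: the mean of 23 markers was 8.54 and 7.42 there, 4.48 on each array of ESC, 4.99 and 5.21 for EpiSC, and 4.49 and 4.64 for ICM. On the FGF-ESC arrays 23 and 21 of those 23 genes exceeded 4.24, the median of all values, compared with 12 and 10 for ESC, 15 and 17 for EpiSC, and 10 and 13 for ICM. The collagen gene Col1a2, a defining fibroblast marker, was at 10.42 and 9.69 in FGF-ESC and at 6.58 and 6.95 in EpiSC, and below the median of all values in ESC and ICM. The FGF-ESC arrays also differed most between themselves, with 395 genes at least 1 log2 unit apart, against 0 for ESC, 20 for EpiSC and 80 for ICM. Fibroblasts express several Krüppel-like factors, and the part of feeder RNA in the levels below was not tested. In bulk RNA, fewer cells of a type and less RNA per cell cannot be told apart.

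All 7 members lay above the median of all values on all 8 arrays and were tested with 13590 other genes. To pass, a gene needed a difference of at least 1 on the log2 scale and an adjusted p below 0.05 (limma, Benjamini-Hochberg over all 13597 tested genes). The span between a member's highest and lowest group mean was 3.90 for Klf4, 2.96 for Klf5, 1.86 for Klf2, 1.61 for Klf9, 1.49 for Klf3, 1.11 for Klf6 and 0.88 for Klf10. The median span over all tested genes was 0.57, and 1.15% of them had a span as large as that of Klf4, while 29.9% had one as large as that of Klf10. EpiSC had the lowest group mean for Klf2, Klf4, Klf5, Klf9 and Klf10, ICM for Klf3 and ESC for Klf6.

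**Figure D1:**
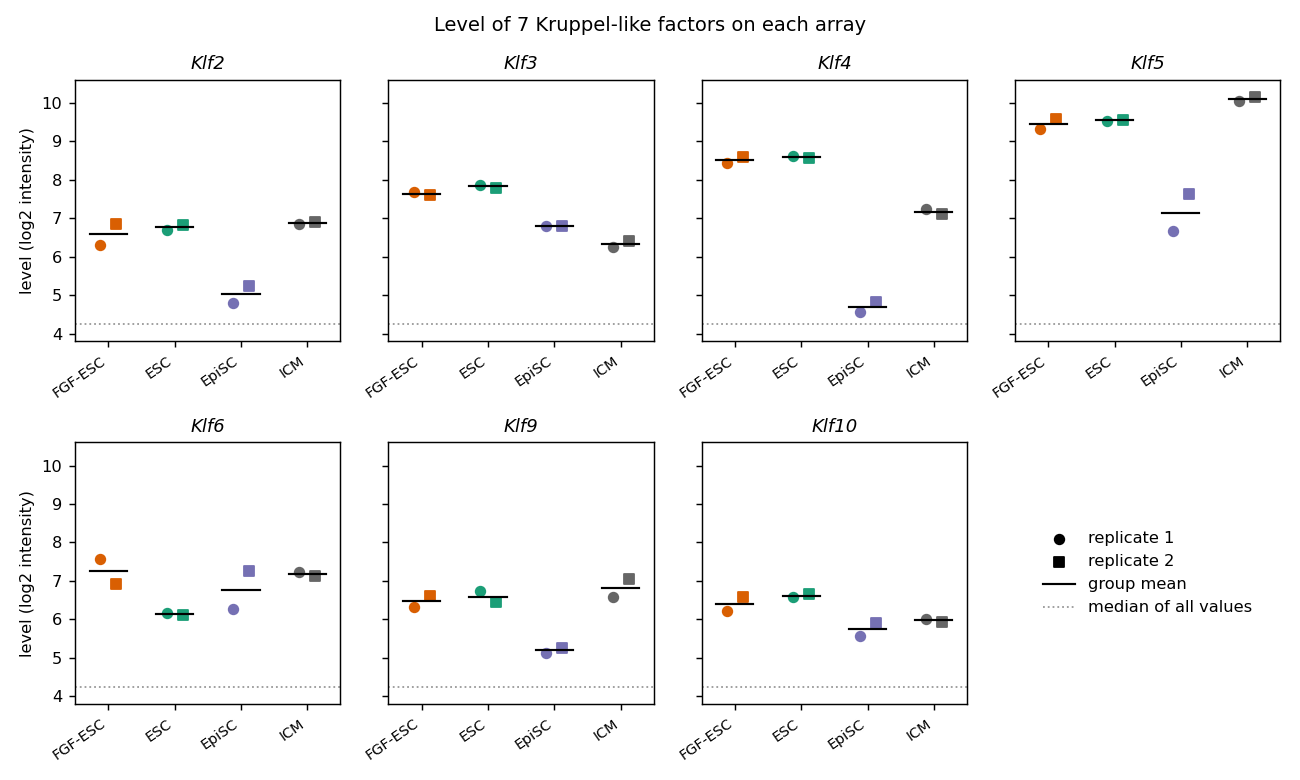
Level of each of the 7 genes on each array (log2 intensity, vertical axis) in the 4 groups (horizontal axis); circles and squares are replicates 1 and 2, black lines are group means and the dotted line is the median of all values. Klf2, Klf4, Klf5 and Klf9 sit lowest in EpiSC, while Klf6 is lowest in ESC and Klf3 in ICM.

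The 250 bases before the annotated start of 4 members are printed because 3 of them, Klf4, Klf2 and Klf9, shared low levels in EpiSC, and Klf6 did not. They come from a table of RefSeq promoters (GRCm38.p6) in which 5 of the 7 members were matched, and are written 5′ to 3′ in the direction of the gene. The Klf4 stretch is chr4:55532476-55532725 on the minus strand, Klf2 is chr8:72318812-72319061, Klf9 is chr19:23140976-23141225 and Klf6 is chr13:5861239-5861488, these 3 on the plus strand. Capitals mark matches, on either strand, to the Krüppel-like factor motif CCNCNCCC, to the STAT motif TTCNNNGAA, to the CArG box of SRF and to the MEF2 motif.
Klf4: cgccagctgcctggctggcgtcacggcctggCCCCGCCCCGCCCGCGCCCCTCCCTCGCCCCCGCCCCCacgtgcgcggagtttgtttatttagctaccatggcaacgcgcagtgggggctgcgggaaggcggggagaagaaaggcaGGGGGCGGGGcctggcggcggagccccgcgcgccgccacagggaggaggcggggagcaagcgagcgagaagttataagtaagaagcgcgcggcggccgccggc
Klf2: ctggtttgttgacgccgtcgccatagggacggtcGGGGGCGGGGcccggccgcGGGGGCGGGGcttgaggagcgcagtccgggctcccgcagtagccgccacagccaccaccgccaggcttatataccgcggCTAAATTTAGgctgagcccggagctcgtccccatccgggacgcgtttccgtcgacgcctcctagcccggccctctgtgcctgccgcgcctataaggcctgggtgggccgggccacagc
Klf9: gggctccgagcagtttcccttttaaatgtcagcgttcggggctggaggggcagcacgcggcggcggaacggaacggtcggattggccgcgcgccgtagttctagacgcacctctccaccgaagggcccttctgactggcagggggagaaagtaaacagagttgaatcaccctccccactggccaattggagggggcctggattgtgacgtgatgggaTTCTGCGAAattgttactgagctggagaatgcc
Klf6: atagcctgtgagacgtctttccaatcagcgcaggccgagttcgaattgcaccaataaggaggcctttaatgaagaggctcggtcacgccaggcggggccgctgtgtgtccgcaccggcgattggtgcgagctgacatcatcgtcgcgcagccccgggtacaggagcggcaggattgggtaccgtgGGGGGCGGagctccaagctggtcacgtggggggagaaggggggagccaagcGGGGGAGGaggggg
The motif CCNCNCCC matched 9 times before Klf4, 4 times before Klf2, 2 times before Klf6, 0 times before Klf9 and 10 times before Klf3, which is not printed. Many of these matches overlap one another in runs of G or C, and 45.9% of all 32851 promoter windows of this length held at least 1. The single match to TTCNNNGAA lay before Klf9, at bases 33 to 25 before the start, in a motif held by 7.02% of windows. The single match to the MEF2 motif lay before Klf2, at bases 118 to 109 before the start, in a motif held by 0.508% of windows; MEF2 factors are substrates of the kinase ERK5. No CArG box was found in these stretches, against 1.47% of all windows. No match of 1 motif overlapped a match of another. The MEF2 motif was chosen after the sequence had been seen, and a match is a description of letters, not of a bound site.

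Klf4, Klf5 and Klf2, the naive regulators among the members, differed little between FGF-ESC and ESC and were lower in EpiSC. Klf4 (probe set 17425401), a target of LIF and STAT3, was at 8.44 and 8.59 on the FGF-ESC arrays, 8.61 and 8.56 on those of ESC, 4.55 and 4.82 for EpiSC, and 7.23 and 7.11 for ICM. The FGF-ESC and ESC arrays overlapped, the ICM arrays lay between them and EpiSC, and both EpiSC arrays were close to the median of all values, so a fold against EpiSC depends on that floor. Klf4 was higher than in EpiSC by 3.83 ± 0.13 in FGF-ESC (SE, n = 2 arrays per group, adjusted p = 1.45e-05), a ratio of 14.2, and by 3.90 ± 0.13 in ESC (adjusted p = 4.16e-06), a ratio of 14.9. ICM exceeded EpiSC by a ratio of 5.60, a log2 difference of EpiSC minus ICM of -2.48 ± 0.13 (adjusted p = 5.17e-06). Klf4 was in turn higher in FGF-ESC than in ICM by 1.34 ± 0.13 (adjusted p = 0.000155) and in ESC than in ICM by 1.42 ± 0.13 (adjusted p = 0.000146). The order was thus ESC, FGF-ESC, ICM and EpiSC, and of the neighbours in it only ESC and FGF-ESC did not differ beyond their spread.

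Klf5 (probe set 17302397), which keeps embryonic stem cells from differentiating and is also active in trophectoderm, was at 9.32 and 9.59 on the FGF-ESC arrays, 9.53 and 9.56 on those of ESC, 6.66 and 7.63 for EpiSC, and 10.04 and 10.16 for ICM. Both EpiSC arrays were below all others, and the ICM arrays were above all others. The difference from EpiSC was 2.31 ± 0.27 in FGF-ESC (adjusted p = 0.000917), a ratio of 4.96, and 2.40 ± 0.27 in ESC (adjusted p = 0.000586), a ratio of 5.28. EpiSC minus ICM was -2.96 ± 0.27 (adjusted p = 7.57e-05), a ratio of 7.77 in favour of ICM. The mean of the trophectoderm list was also highest in ICM, at 5.67 and 5.69 against at most 4.90 elsewhere, though not for every member. Its part in the Klf5 level was not tested. Klf5 did not pass between ICM and the other 2 groups: FGF-ESC minus ICM was -0.65 (95% interval -1.27 to -0.02, adjusted p = 0.0981) and ESC minus ICM was -0.56 (95% interval -1.18 to 0.07, adjusted p = 0.156).

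Klf2 (probe set 17502440) was at 6.30 and 6.86 on the FGF-ESC arrays, 6.70 and 6.83 on those of ESC, 4.79 and 5.25 for EpiSC, and 6.84 and 6.90 for ICM. EpiSC was again separate from the other 6 arrays, which lay within a narrow band apart from FGF-ESC replicate 1. It was higher than in EpiSC by 1.56 ± 0.21 in FGF-ESC (adjusted p = 0.00177), a ratio of 2.95, and by 1.75 ± 0.21 in ESC (adjusted p = 0.000792), a ratio of 3.36. EpiSC minus ICM was -1.86 ± 0.21 (adjusted p = 0.000233), a ratio of 3.62 in favour of ICM. The order ICM, ESC, FGF-ESC held no difference between neighbours beyond their spread: ESC minus ICM was -0.11 (95% interval -0.59 to 0.37) and FGF-ESC minus ICM -0.29 (95% interval -0.78 to 0.19).

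Klf9 (probe set 17358214), the hormone-induced factor, had the same order of groups as Klf2. Its level read 6.32 and 6.62 on the FGF-ESC arrays, 6.72 and 6.44 on those of ESC, 5.13 and 5.25 for EpiSC, and 6.57 and 7.04 for ICM. EpiSC lay below all other arrays, and the other 3 groups overlapped one another. Klf9 exceeded its EpiSC level by 1.28 ± 0.19 in FGF-ESC (adjusted p = 0.00284), a ratio of 2.42, and by 1.39 ± 0.19 in ESC (adjusted p = 0.0015), a ratio of 2.62. EpiSC minus ICM was -1.61 ± 0.19 (adjusted p = 0.000291), a ratio of 3.06 in favour of ICM.

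Between FGF-ESC and ESC, which differ in medium, feeders and growth factors, 6 of the 7 members did not pass. The 1 member that passed was Klf6, higher in FGF-ESC, 14.3% of the members beside 6.21% of all tested genes, of which 5.27% were higher and 0.934% lower. For the 6 the interval of the difference is given, which reflects the spread between these arrays alone and does not bound the difference between the kinds of cells. FGF-ESC minus ESC was -0.07 for Klf4 (95% interval -0.38 to 0.23), -0.09 for Klf5 (-0.71 to 0.53), -0.19 for Klf2 (-0.67 to 0.30) and -0.11 for Klf9 (-0.55 to 0.32). For Klf3 it was -0.19 (95% interval -0.45 to 0.07) and for Klf10 -0.22 (-0.59 to 0.15). All 6 intervals lay within the fold minimum of 1 in either direction. The median over the 7 members was -0.11, beside -0.06 over all tested genes.

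Against EpiSC, grown in the same labelled medium and on feeders, 4 of the 7 members were higher in FGF-ESC and 0 lower, Klf2, Klf4, Klf5 and Klf9. This is 57.1% of the members, beside 7.28% of all tested genes called in either direction, 5.26% higher and 2.02% lower. Between ESC and EpiSC 5 members were higher in ESC and 0 lower, 71.4%, beside 7.36% of all genes in either direction, 3.5% higher and 3.86% lower. These comparisons share the EpiSC arrays. The median over the members was 1.28 for FGF-ESC minus EpiSC and 1.39 for ESC minus EpiSC, beside -0.04 and 0.005 over all tested genes. Between EpiSC and ICM 0 members were higher in EpiSC and 4 lower, the same 4 as for FGF-ESC, beside 15.3% of all genes in either direction, 8.48% higher and 6.8% lower. The median of the fibroblast list was 3.01 for FGF-ESC minus EpiSC, and its part in the differences of that comparison was not tested. In the comparison of ESC with EpiSC the same 4 members and Klf3 passed, and the fibroblast median was -0.39. Of that list 5 genes were lower in ESC, among them Col1a2 (-3.43) and Mmp2 (-3.04), and 1, Fn1 (2.00), was higher. The count of 5 fell without ESC replicate 1, ESC replicate 2 or EpiSC replicate 2. The part of these fibroblast differences was not tested either.

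**Figure D2:**
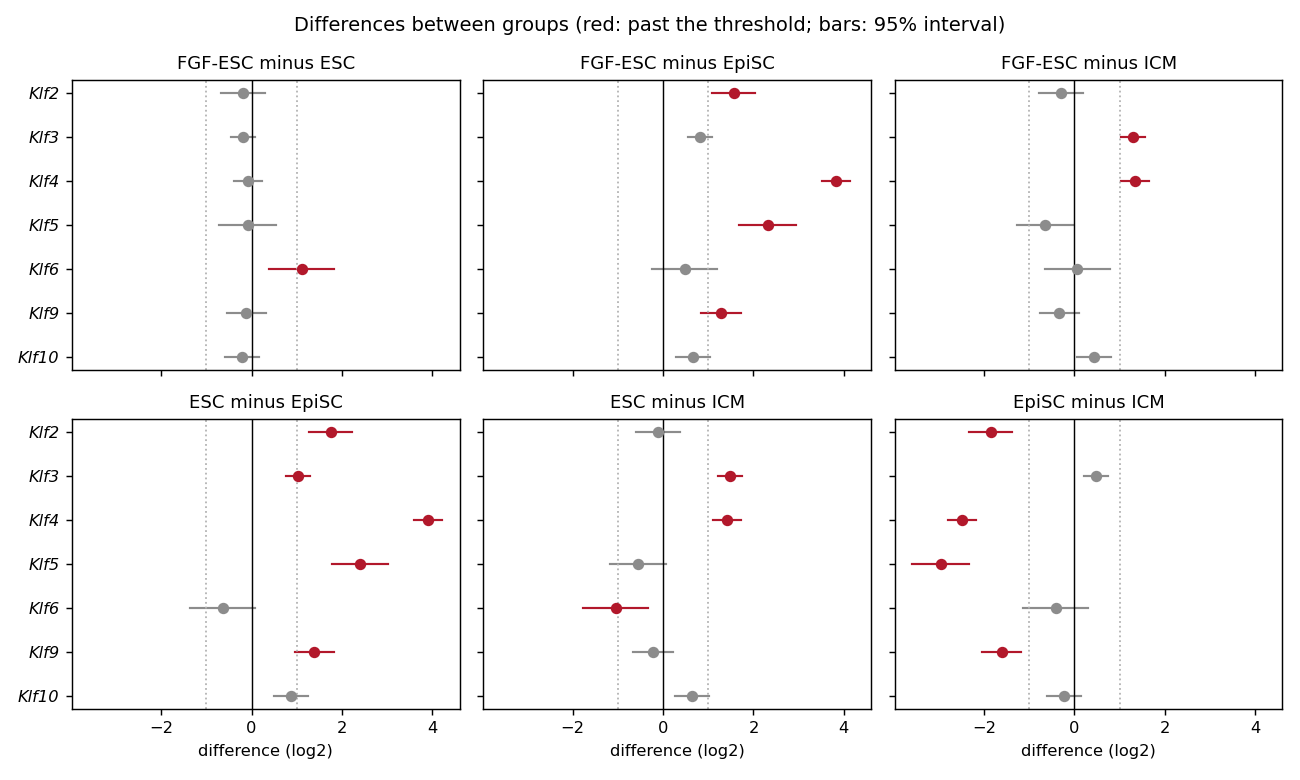
Differences between groups for the 7 genes (horizontal axis, log2; first group minus second) in the 6 comparisons, with 95% intervals from limma; red points passed the threshold, grey points did not, and dotted lines mark a difference of 1 in either direction. Klf4 reaches 3.83 and 3.90 against EpiSC, and all genes but Klf6 lie near 0 between FGF-ESC and ESC.

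Klf3 (probe set 17437674), the repressor of the group, had its lowest level in ICM. It was at 7.68 and 7.59 on the FGF-ESC arrays, 7.85 and 7.80 on those of ESC, 6.81 and 6.81 for EpiSC, and 6.26 and 6.41 for ICM. No 2 groups overlapped, and ICM was the lowest where the naive regulators had high or middle levels. Klf3 was higher than in ICM by 1.30 ± 0.12 in FGF-ESC (adjusted p = 8.51e-05) and by 1.49 ± 0.12 in ESC (adjusted p = 5.16e-05), ratios of 2.46 and 2.81. ESC exceeded EpiSC by 1.02 ± 0.12 (adjusted p = 0.000586), just past the fold minimum, with 0.98 when arrays were centred on their medians and 0.99 without ESC replicate 1. FGF-ESC exceeded EpiSC by 0.83 ± 0.12 (adjusted p = 0.00205) and EpiSC exceeded ICM by 0.47 ± 0.12 (adjusted p = 0.0126), both under the fold minimum.

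Klf10 (probe set 17316690) had the smallest span of the members and passed in 0 of 6 comparisons in limma. Its level read 6.22 and 6.58 on the FGF-ESC arrays, 6.58 and 6.65 on those of ESC, 5.57 and 5.90 for EpiSC, and 6.02 and 5.93 for ICM. The ESC arrays were the highest and the EpiSC arrays the lowest. It had an adjusted p below 0.05 with a difference under the fold minimum in 3 comparisons: ESC minus EpiSC was 0.88 ± 0.16 (adjusted p = 0.00676), FGF-ESC minus EpiSC 0.66 ± 0.16 (adjusted p = 0.0244) and ESC minus ICM 0.64 ± 0.16 (adjusted p = 0.0171). Without EpiSC replicate 2 the first was 1.04 and passed (adjusted p = 0.0158).

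Klf6 (probe set 17285000) had another pattern, with its lowest level in ESC. It was at 7.58 and 6.91 on the FGF-ESC arrays, 6.16 and 6.10 on those of ESC, 6.27 and 7.26 for EpiSC, and 7.23 and 7.13 for ICM. The ESC arrays were close together and lay below all others, while the arrays of FGF-ESC and of EpiSC were far apart. FGF-ESC exceeded ESC by 1.11 ± 0.31 (adjusted p = 0.0481), a ratio of 2.16, and ICM exceeded ESC by a ratio of 2.07, with ESC minus ICM at -1.05 ± 0.31 (adjusted p = 0.034). Both calls were near the threshold. The first was lost without FGF-ESC replicate 1 (0.78, adjusted p = 0.2), without ESC replicate 1 (1.14, 0.202) or without ESC replicate 2 (1.09, 0.207), and over all its alternatives the adjusted p ranged from 0.0145 to 0.207. The second was lost when any of the 4 arrays compared was left out, with adjusted p from 0.102 to 0.146 in those fits and from 0.000752 to 0.146 over all alternatives. With the replicate numbers as a block, the adjusted p was 0.0731 for the first and 0.0525 for the second.

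FGF-ESC replicate 1, the array with the higher Klf6 level of its pair, also had the higher fibroblast mean, 8.54 against 7.42, and the higher mean of 13 immediate early genes, 7.62 against 6.78. EpiSC replicate 2, with the higher Klf6 level, had a fibroblast mean of 5.21 against 4.99 and an immediate early mean of 6.70 against 6.25. In ICM, uncultured cells extracted with a separate kit, Klf6 was at 7.23 and 7.13. The fibroblast mean there was 4.49 and 4.64 and the immediate early mean 5.46 and 5.58. The part of either list in the Klf6 levels of the cultures was not tested.

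**Figure D3:**
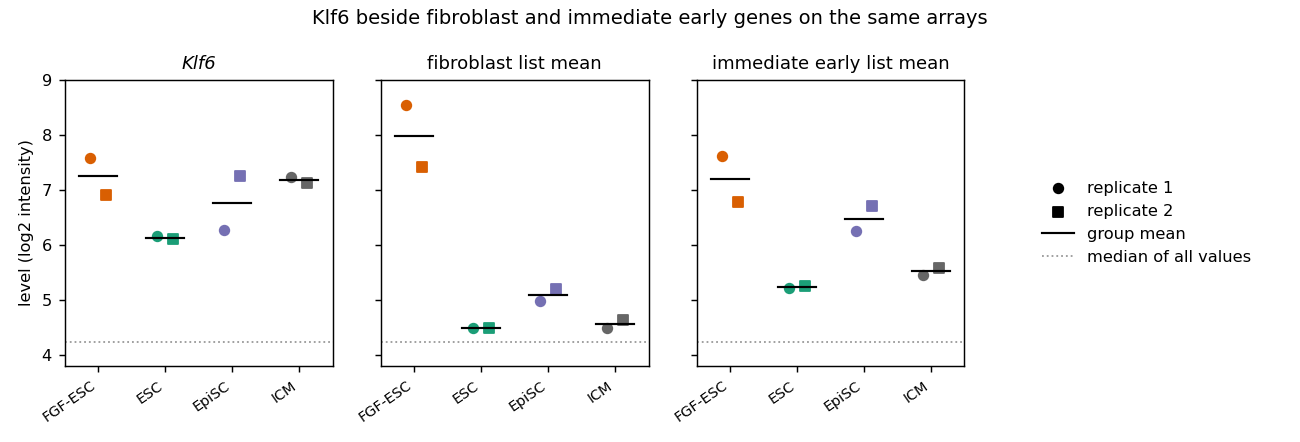
Level of Klf6 on each array (log2 intensity, left) beside the mean level of 23 fibroblast marker genes and of 13 immediate early genes on the same arrays; symbols as for the member levels. FGF-ESC replicate 1 is the higher array of its pair in all 3 panels. The ICM arrays, uncultured cells with a separate RNA kit, have Klf6 at 7.23 and 7.13 and both list means below 5.6.

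Klf5 and Klf6 were also among the genes that differed most between the EpiSC arrays. Replicate 2 exceeded replicate 1 by 0.97 for Klf5 and 0.99 for Klf6, and 27 and 23 of the 13597 tested genes differed by as much, 0.199% and 0.169%. The median difference between these arrays was 0.12. Klf2 differed by 0.46, as much as 3.91% of genes, and Klf3 by under 0.001. The Klf5 calls against EpiSC held without either array: FGF-ESC minus EpiSC ran from 1.83 to 2.80 over all alternatives and ESC minus EpiSC from 1.92 to 2.88. Klf6 did not pass between EpiSC and any other group, but without EpiSC replicate 1 ESC minus EpiSC was -1.12 and passed (adjusted p = 0.0431).

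In the comparisons with ICM, 2 of 7 members were higher in FGF-ESC and 0 lower, Klf3 and Klf4, 28.6% beside 14.8% of all tested genes, 9.57% higher and 5.22% lower. Between ESC and ICM 2 were higher in ESC, the same 2 genes, and 1 lower, Klf6, 42.9% beside 11.4% of all genes, 5.82% higher and 5.57% lower. The ICM arrays are shared by these comparisons. The member medians were 0.07 and -0.11, beside -0.02 and 0.02 over all genes.

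The other 10 Krüppel-like factors on the array were Klf1, Klf7, Klf8, Klf11, Klf12, Klf13, Klf14, Klf15, Klf16 and Klf17, of which 9 were tested and 1, Klf15, was too dim. Klf7, Klf8 and Klf12 passed in at least 1 comparison, and the other 6 tested genes passed in none of the 6 in limma. Klf8, a factor linked to epithelial to mesenchymal transition, was at 4.93 and 5.12 on the FGF-ESC arrays, 6.32 and 6.26 on those of ESC, 4.03 and 4.27 for EpiSC, and 6.33 and 6.13 for ICM. Its FGF-ESC arrays lay between those of EpiSC and those of ESC and ICM. FGF-ESC minus ESC was -1.27 ± 0.14 (adjusted p = 0.0012) and FGF-ESC minus ICM -1.21 ± 0.14 (adjusted p = 0.000328). ESC exceeded EpiSC by 2.14 ± 0.14 (adjusted p = 4.18e-05) and EpiSC minus ICM was -2.08 ± 0.14 (adjusted p = 1.42e-05), against an EpiSC mean at the floor. Between FGF-ESC and EpiSC the difference was 0.87 ± 0.14, under the fold minimum. These 4 calls held in all 12 alternatives of each.

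Klf12, a repressor that also binds CtBP, was at 6.54 and 6.69 on the FGF-ESC arrays, 5.62 and 5.65 on those of ESC, 5.84 and 5.82 for EpiSC, and 4.13 and 4.57 for ICM. Its ICM arrays were the lowest, near the median of all values, and its FGF-ESC arrays the highest. FGF-ESC minus ICM was 2.27 ± 0.16 (adjusted p = 2.29e-05), ESC minus ICM 1.29 ± 0.16 (adjusted p = 0.000495) and EpiSC minus ICM 1.48 ± 0.16 (adjusted p = 0.000159). Against ESC, FGF-ESC was higher by 0.98 ± 0.16, under the minimum. Klf7, a factor of neuronal development, exceeded its ICM level in EpiSC by 1.28 ± 0.16 (adjusted p = 0.000344), with means of 5.66 and 4.38, the latter near the floor. Its other probe set had the same highest and lowest groups at dim levels, with means of 4.41 in EpiSC and 2.88 in ICM. Of the 8 related Sp factors named on the array (Sp1 and Sp3 to Sp9), 5 were tested (Sp1, Sp3, Sp4, Sp5 and Sp7) and 0 passed in the 6 comparisons in limma, with 0 to 2 at an unadjusted p below 0.05 in each.

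**Figure D4:**
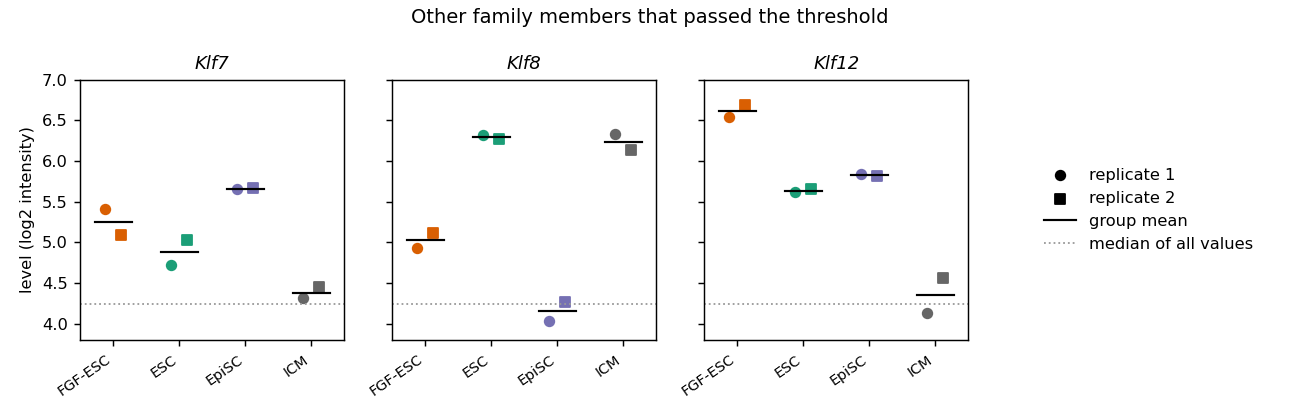
Level of Klf7, Klf8 and Klf12 on each array (log2 intensity, vertical axis) in the 4 groups; symbols as for the member levels. Klf8 lies near 5 in FGF-ESC and above 6 in ESC and ICM, and Klf12 is highest in FGF-ESC and lowest in ICM.

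Most genes around Klf2, Klf4 and Klf5 in the pluripotency network were also lower in EpiSC than in FGF-ESC and ESC. Of 16, 12 were higher in FGF-ESC than in EpiSC and 0 lower, beside 5.26% and 2.02% of all genes, with a median of 1.67. Among the 12 were the T-box factor Tbx3 (3.08 ± 0.14, adjusted p = 2.05e-05), Dppa4 (3.39 ± 0.16) and the nuclear receptor Nr5a2 (2.01 ± 0.14). In ESC against EpiSC 13 were higher and 0 lower, beside 3.5% and 3.86% of all genes, with Tbx3 at 4.20 ± 0.14. The EpiSC means of Tbx3 and Dppa4, 4.24 and 4.48, were at or near the median of all values, so these differences depend on that floor, as does that of Bcl3 below. Further, EpiSC minus ICM gave 0 higher and 9 lower, beside 8.48% and 6.8% of all genes. Between FGF-ESC and ESC 0 were higher and 3 lower, beside 5.27% and 0.934% of all genes. The 3 were Tbx3 (-1.12 ± 0.14, adjusted p = 0.00215), Tcl1, a coactivator of AKT (-1.88 ± 0.26, adjusted p = 0.00351) and Zfp42, known as Rex1 (-1.28 ± 0.21, adjusted p = 0.0076). Only Tbx3 was left when ESC replicate 1 was left out, where Tcl1 had an adjusted p of 0.0504 and Zfp42 of 0.0747, and Zfp42 was also lost without ESC replicate 2 (0.0659). The fibroblast list had a median difference of 3.71 between FGF-ESC and ESC, whose part in these and the following list counts was not tested.

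The LIF receptor and STAT3 axis, to which Klf4 and Klf5 respond, was read by 9 genes, both signalling genes and targets. Of these, 7 were higher in FGF-ESC than in EpiSC and 0 lower, beside 5.26% and 2.02% of all genes. The median was 1.28, beside -0.04 over all genes. The signalling receptor Lifr rose by 1.45 ± 0.14 (adjusted p = 0.000372), Bcl3 by 2.33 ± 0.24 (adjusted p = 0.000458) and Tfcp2l1, a transcription factor target of STAT3, by 2.13 ± 0.16 (adjusted p = 0.000127). In ESC against EpiSC 5 of 9 were higher and 1 lower, beside 3.5% and 3.86% of all genes. The lower gene was Gbx2 at -1.53, a call lost without ESC replicate 1, ESC replicate 2 or EpiSC replicate 1. Between FGF-ESC and ESC 8 of 9 did not pass and Tfcp2l1 was lower, at -1.75 ± 0.16 (adjusted p = 0.000514). LIF is not among the labelled components of the FGF-ESC medium. Against ICM, Socs3, the feedback inhibitor of this pathway, was higher by 2.56 ± 0.14 in FGF-ESC (adjusted p = 8.25e-06), by 2.92 ± 0.14 in ESC (adjusted p = 4.59e-06) and by 1.39 ± 0.14 in EpiSC (adjusted p = 0.000131).

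Targets of FGF and ERK signalling, which acts against the KLF2 protein, exceeded their ESC level in FGF-ESC for 5 of 12 and were lower for 0, with a median of 0.89. Leaving out FGF-ESC replicate 1 or either ESC array gave 2, and a fit of these groups alone gave 3. The phosphatase Dusp6 rose by 1.59 ± 0.12 (adjusted p = 0.000174) and Ier3 by 2.59 ± 0.26 (adjusted p = 0.000711). Klf2 transcript was at -0.19 in the same comparison. ESC minus EpiSC gave 0 higher and 4 lower, beside 3.5% and 3.86% of all genes, with Dusp6 at -2.17 ± 0.12 (adjusted p = 1.97e-05). The count of 4 fell without ESC replicate 2. Immediate early genes are the class to which Klf6 and Klf10 are often counted. In FGF-ESC against ESC 11 of 13 were higher and 0 lower, beside 5.27% and 0.934% of all genes, with a median of 1.95. Of the 13, 7 passed when FGF-ESC replicate 1 was left out, 5 for ESC replicate 1 and 6 for ESC replicate 2. Egr1 rose by 3.27 ± 0.23 (adjusted p = 0.000149) and Fos by 2.36 ± 0.23 (adjusted p = 0.000711), while Klf10 was at -0.22. EpiSC exceeded ICM for 4 of the 12 ERK targets and 5 of the 13 immediate early genes, beside 8.48% of all genes. The latter count fell without ICM replicate 1.

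Early targets of TGF-beta, the pathway tied to Klf10, passed most often between EpiSC and ICM. There 3 of the 6 tested were higher in EpiSC and 0 lower, beside 15.3% of all genes: Smad7, an inhibitor of the pathway (1.62 ± 0.11, adjusted p = 1.84e-05), the SMAD corepressor gene Skil (1.10 ± 0.17, adjusted p = 0.00134) and the matrix protein gene Tgfbi (1.16 ± 0.34, adjusted p = 0.0286). The count fell when EpiSC replicate 2 or ICM replicate 2 was left out, where Skil was under the minimum at 0.97 and 0.90. Tgfbi did not pass when any array of these groups was left out, with differences from 0.93 to 1.39. Klf10 was at -0.24 in this comparison. Against ESC, 2 of 6 passed as higher in FGF-ESC and 0 as lower, beside 6.21% of all genes, Tgfbi (1.99 ± 0.34, adjusted p = 0.00832) and the receptor inhibitor Pmepa1 (1.12 ± 0.29, adjusted p = 0.0363). Neither passed when an ESC array was left out, and Pmepa1 was also lost when FGF-ESC replicate 1 was left out (adjusted p = 0.11), with the replicate block (0.0575) and in a fit of these groups alone (0.0909). FGF-ESC against ICM gave 2 higher and 0 lower, beside 9.57% and 5.22% of all genes. FGF-ESC against EpiSC gave 1 higher (Tgfbi) and 1 lower (Skil), beside 5.26% and 2.02% of all genes. ESC against ICM gave 0 in limma, with 3 at an unadjusted p below 0.05, beside 11.4% of all genes called. Tgfbi did not pass against EpiSC when FGF-ESC replicate 1 or either EpiSC array was left out or when these groups were fitted alone, nor did Skil with arrays centred or without FGF-ESC replicate 2 or EpiSC replicate 2. Between ESC and EpiSC 0 were higher and 1 lower, beside 3.5% and 3.86% of all genes. The lower gene was Skil (-1.64 ± 0.17, adjusted p = 0.000384), and Klf10 was at 0.88 in the same comparison.

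Of 6 glucocorticoid targets, the class of Klf9, the kinase gene Sgk1 was higher than in EpiSC in FGF-ESC (1.35 ± 0.18, adjusted p = 0.00187) and in ESC (1.12 ± 0.18, adjusted p = 0.00372), the latter at 0.89 and under the minimum without EpiSC replicate 1. The phosphatase gene Dusp1 was also higher in FGF-ESC than in EpiSC (1.36 ± 0.22, adjusted p = 0.00368). Klf9 had its highest mean in ICM, but its arrays overlapped and it did not pass there (FGF-ESC minus ICM -0.33, ESC minus ICM -0.22). The glucocorticoid targets that passed between ICM and these cultures were lower in ICM. FGF-ESC exceeded ICM by 1.24 for Sgk1 and 2.00 for Dusp1. ESC exceeded ICM by 1.23 for Fkbp5, 1.01 for Sgk1 and 1.09 for Dusp1, with 0 passing as lower in either culture. In ESC, Sgk1 was under the minimum with arrays centred (0.98) and without ESC replicate 1 (0.97) or ICM replicate 1 (0.95), and Dusp1 without ICM replicate 2 (0.97). The other 2 comparisons gave 0 calls in limma, each with 3 at an unadjusted p below 0.05. Of 11 cofactors and ubiquitin ligases of these proteins, Ctbp1, a corepressor partner of Klf3, was higher in EpiSC than in ICM (1.53 ± 0.23, adjusted p = 0.00103). In FGF-ESC against ICM, Ctbp1 (1.03, adjusted p = 0.00833) and Fhl3 (1.06, adjusted p = 0.0105) were also higher in limma. Each of these 2 calls was lost in 3 alternatives, with Ctbp1 at 0.97 under quantile normalization. Kat2b, an acetyltransferase, was higher in ESC than in EpiSC (1.29 ± 0.12, adjusted p = 0.000203). Between FGF-ESC and ESC 0 of the 11 passed in limma, with 3 at an unadjusted p below 0.05, and likewise 0 and 3 between FGF-ESC and EpiSC.

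For the 6 members with a span of at least 1, the nearest profiles were sought among 13590 other genes by the root mean square difference over the 8 arrays after centring each gene. Nearest to Klf4 were Gab1, an adaptor of growth factor receptors, at 0.42, and the noncoding RNA Platr10 at 0.46. Nearest to Klf2 were Upp1, a uridine phosphorylase, at 0.13 and the chromatin factor gene Mllt10 at 0.22, and Upp1 was also the second nearest to Klf9 (0.19) after Ap3b1, a subunit of a vesicle adaptor complex (0.18). Klf5 was nearest to the predicted genes Gm21082 (0.18) and Gm14393 (0.24). Klf3 was nearest to Ltbp4, a binding protein of latent TGF-beta (0.08), and to the guidance gene Ntn1 (0.14). Klf6 was nearest to the LIM protein gene Lpp (0.19). The distances are in log2 units, and a profile over 4 groups leaves little room to tell genes apart.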

How the data were processed

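For each array the authors deposited a log2 value per probe set, 41345 in all, and the submitters' processing notes name Expression Console 1.3.1 as the software. On summarisation, background correction and build, nothing is given in the sources used here. The log2 scale is read from the range, 1.63 to 12.2, since another base would put the brightest probe sets beyond a scanner's reach. No normalization was added. Genes were named from the 23521 probe sets annotated with 1 gene, and 1814 probe sets with several genes were left out. For genes with several probe sets the one with the highest mean was used. A gene was tested if at least 2 arrays exceeded the median of all values, 4.24, leaving 13597 of 22180.

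Differences were fitted in R 4.3.3 with limma 3.58.1, using a means model of all 8 arrays (4 residual degrees of freedom), with Benjamini-Hochberg adjustment within each of 6 comparisons. Each SE and 95% interval is limma's and pools the spread of all groups. The scripts were first tested on simulated data. The number of arrays limits the precision. The members, the lists and the tests were chosen with earlier results of these data known. Named are the members, the other family genes that passed, up to 3 passing genes of a list with the smallest adjusted p, 2 nearest profiles per member, and marker genes; the second profile for Klf6 is not reported here. Gbx2 was named after its value was seen. Alternatives changed the normalization, filter, moderation, probe set choice, fold minimum and samples, and left out each array.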

Additional observations from a re-analysis of the deposited data

How the results depend on the processing

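Of 42 member differences, 19 passed, and 16 of these passed in every alternative tried. The exceptions were Klf6 between FGF-ESC and ESC, Klf6 between ESC and ICM, and Klf3 between ESC and EpiSC. For FGF-ESC with ESC the number of passing members was 0 instead of 1 with arrays centred on their medians, with no filter, in a fit of only the 2 groups compared and with the replicate block, and 0 to 1 when an array was left out; the cause was not tested. The counts of the other comparisons stayed within 1.5 times the reported ones, and with 1 array left out they were 4 for FGF-ESC with EpiSC, 2 for FGF-ESC with ICM, 4 to 6 for ESC with EpiSC, 2 for ESC with ICM and 4 for EpiSC with ICM. The replicate block ended no other member's call than the 2 of Klf6. Differences that changed sign had not passed. With 1 array left out, FGF-ESC minus ESC ran from -0.46 to 0.092 for Klf2, from -0.22 to 0.043 for Klf5 and from -0.26 to 0.036 for Klf9, which was 0.028 without ESC replicate 1. For Klf6, FGF-ESC minus EpiSC ran from -0.011 to 0.97, FGF-ESC minus ICM from -0.27 to 0.40 and EpiSC minus ICM from -0.91 to 0.078, and for Klf9 ESC minus ICM ran from -0.46 to 0.016. Where 1 array of a group was left, it was assumed to vary like the other groups. The replicate numbers are only shared between groups: deviations of same-numbered arrays had correlations over genes from -0.09 to 0.04, and the block moved the number of genes called from 844 to 828 between FGF-ESC and ESC, from 990 to 974 between FGF-ESC and EpiSC and by fewer in the other comparisons. Another normalization moved the median of all genes by at most 0.07.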

Other observations

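The 27 genes that differed between the EpiSC arrays by at least as much as Klf5 did were looked at after their values had been seen, and 21 of them were higher on replicate 2. Higher there were Fgfbp1, a carrier of FGF ligands, by 2.01, the Nodal antagonist gene Cer1 by 1.76, the stem cell gene Fbxo15 by 1.62, the AP-1 genes Fosb and Jun by 1.31 and 1.23, the annexin gene Anxa1 by 1.16 and the epithelial cadherin gene Cdh1 by 1.04. Higher on replicate 1 was Fabp7, a lipid-binding protein of neural progenitors, by 1.21. With 1 difference per gene there is no test, and these values describe the 2 arrays.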
